A study of Drosophila melanogaster with 18 samples.

Results

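CG14947, CG15071, CG43402, CG13324, CG30485 and CG31897 are 6 protein-coding genes of Drosophila melanogaster for which the deposited lists and the gene table used here give no name beyond an annotation number. They were found by their symbols in lists of variants called from embryo RNA, and they are 6 of the 129 genes and hold 18 of the 173 distinct changes in those lists. The genes were chosen by values of the same lists, namely several changes in 1 gene and line, their close spacing and their equal quality scores. Counts, spacing and equality of scores are therefore given below as a description, with no test.

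The study screened mutant lines for genes that shape embryonic muscle, and sequenced RNA of 6 such lines in 18 samples. Lists of 3 lines were analysed here, those of sj266 (2 samples), sj440 (3 samples) and sj461 (3 samples), which differ by line alone in the labels and have 2 replicates each, called technical. In all of them polyadenylated RNA came from whole embryos at stage 12, laid over 3 h at 25 °C and kept for a further 7 h, and homozygous embryos were sorted by hand against a fluorescent balancer chromosome. The genotype behind each line name and the mutagen are not given in the labels, and no sample is labelled as a parent or wild-type stock. As the samples of a line share 1 list, no value below has a replicate error. The lists hold neither read depth nor allele share nor phase, that is, which changes lie on the same RNA molecule.

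Neighbouring differences from a reference genome can be inherited together on 1 chromosome, as a haplotype, or can arise as separate lesions. Some variant callers judge each base by itself, and an annotation program may then write a protein effect for each base as if it were the only change in its codon. When several bases of 1 codon differ, the protein effect depends on whether they sit on the same molecule. The quality score is the caller's own measure of confidence that a base differs. The labels and file headers do not state its scale.

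All 18 changes were single-base substitutions in coding exons, 17 missense and 1 stop gained. No entry of these genes was repeated in the lists. Line sj461 held 9 of the changes (CG14947, CG15071 and CG43402, 3 each), sj440 held 7 (CG30485 with 3, CG13324 and CG31897 with 2 each), and sj266 held 2, both in CG31897. Only CG31897 was listed in more than 1 line. None of the 18 changes was found in the list of another line. How many changes of the other genes recur between lists is not given here, so this count has no background. Over all genes and lines, the 129 genes gave 143 combinations of a gene and a line, 7 of them from the 6 genes. Of the 143 combinations, 6 had 3 or more changes. CG14947, CG15071, CG43402 and CG30485 made up 4 of those 6, and the others were Msp300, a protein that anchors nuclei in muscle, and the protease gene Np, whose 3 entries were insertions.

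CG43402 (FBgn0263321, 2L, from 1442627 to 1443832) carried 3 changes in sj461, all with a score of 30.4. D70N (c.208G>A, position 1442994) replaces an acidic residue by its amide. At the 3′ end of the run, adjacent bases of codon 90 were both changed, c.269A>T (position 1443055) and c.270C>G (position 1443056). Coding bases are numbered from 1 at the first base of the start codon, and residues from 1 at the start of the protein. The list gives the first as Y90F and the second as a stop gained, Y90*. The reference codon is tac, and with both changes on 1 molecule it reads tTG (changed bases in capitals), which is Y90L. A stop would be made by c.270C>G on a molecule without c.269A>T. The listed stop, the single high-impact call among the 6 genes, thus depends on a phase that the list does not hold. The embryos were sorted as homozygous, and where both changes are homozygous every molecule would read Y90L. Whether they were homozygous at this codon is not in the list and was not tested.

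CG13324 (FBgn0033789, 2R, from 13049146 to 13049656) showed the same arrangement in sj440. Both changes lay in codon 57, N57D (c.169A>G, position 13049450) and N57T (c.170A>C, position 13049449), each with a score of 27.4. The gene is on the reverse strand, so the higher position is the earlier coding base. Read together the codon gives N57A, a residue that neither entry lists. CG13324 is the shortest of the 6 genes, with 511 bases in the gene table.

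CG31897 (FBgn0051897, 2L, from 8442447 to 8445815) differed between the lines that list it. In sj440 it had adjacent changed bases across a codon boundary, M779I (c.2337G>A, position 8444979) and G780S (c.2338G>A, position 8444980), both with a score of 26.4, the lowest in that list. Each falls in its own codon, so either residue change reads the same whether or not the other is on that molecule. In sj266 it had M79I (c.237G>T, position 8442879) and D991N (c.2971G>A, position 8445613), both with a score of 55 and 2734 bases apart. The sj440 pair lay between the sj266 changes, 2100 bases from M79I and 633 bases from D991N. The lines thus shared the gene and no listed change in it. A change missing from a list may not have been called or may have been filtered out, as depth and filters are unknown.

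CG30485 (FBgn0050485, 2R, from 13849882 to 13852983) had 3 changes within 54 bases in sj440, all with a score of 39.4. Q303P (c.908A>C, position 13850798) and S305P (c.913T>C, position 13850803) lay 5 bases apart and both bring in proline, a residue that restricts the protein backbone. K321I (c.962A>T, position 13850852) followed 49 bases on and replaces a basic residue by a hydrophobic one. The end of this gene overlaps Echs1 and mir-9379 in the gene table, but none of the 3 changes lies in the overlap.

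CG15071 (FBgn0034377, 2R, from 18696585 to 18697345) had L40P (c.119T>C, position 18696752) with a score of 67 in sj461, the highest of the 18. It was followed 201 bases on by G107A (c.320G>C, position 18696953) and after another 35 bases by L119I (c.355C>A, position 18696988), both with a score of 38.4. The near pair had equal scores, and the distant change did not share theirs. The whole of CG15071 lies inside the interval of Sik3, a salt-inducible kinase, and whether reads of Sik3 RNA are among those behind these calls was not tested.

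CG14947 (FBgn0032406, 2L, from 12076100 to 12077739) was the member whose near changes had unequal scores. In sj461, H8Q (c.24T>A, position 12076846) scored 49.4, S30C (c.88A>T, position 12076910) 43.4 and N131K (c.393C>G, position 12077215) 57. They were 64 and 305 bases apart. All 3 were transversions, that is, changes between a purine and a pyrimidine.

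**Figure D1:**
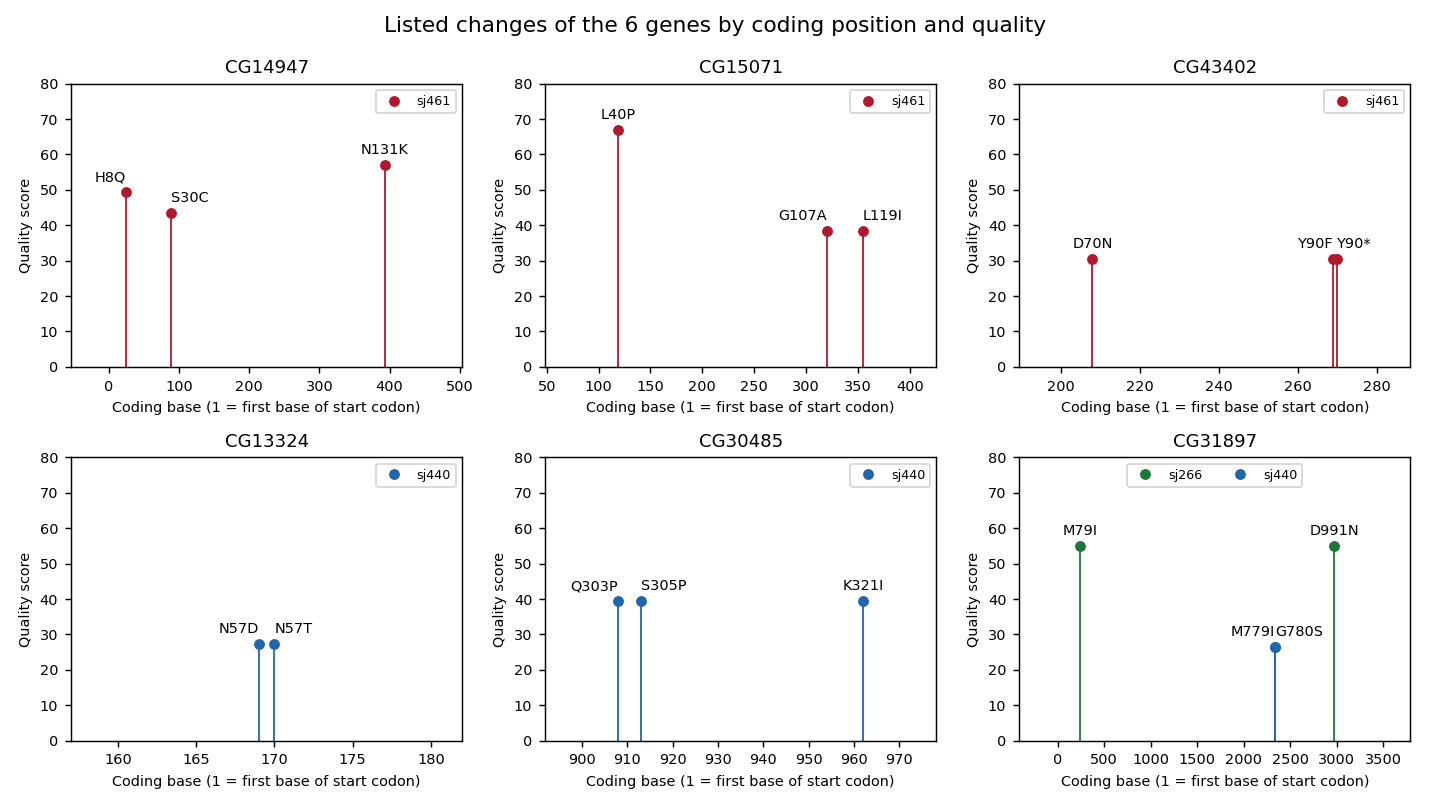
Quality score (vertical axis, no unit) of each listed change against its coding base in the annotated transcript (horizontal axis, own scale in each panel), 1 panel per gene, coloured by line. CG30485, CG43402, CG13324 and both lines of CG31897 show level scores within a line, while CG14947 has 3 different scores and CG15071 has 67 beside a pair at 38.4.

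In every one of the 7 combinations of gene and line, the distance between first and last change was the same in the genome as in the coding sequence, so no intron lay between them. The span was 100 bases or less in 4 combinations (CG13324, CG30485, CG43402 and CG31897 in sj440) and 236, 369 and 2734 bases in the other ones. Of the 18 changes, 14 had another change of the same gene and line within 100 bases. Such neighbours were found in all 6 genes, which were chosen partly by close spacing, and in 13 of the other 123 genes. Outside its own gene, the distance to the nearest listed change of the same line ranged from 37895 bases for L40P of CG15071 (the neighbour is Gint3) to 270256 bases for D991N of CG31897 (Piezo). This distance is not given for the other genes, so whether the 6 genes stand apart was not tested. As the lists hold only changes of high or moderate impact, silent and non-coding differences between these positions are not seen, and the spacing is that of listed changes.

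Successive changes of 1 gene in 1 line formed 8 pairs within 100 bases in the 6 genes, and 7 of them had equal scores. The exception was H8Q and S30C of CG14947. The other 123 genes had 14 such pairs, of which 3 were equal, in Msp300, Pvr and 5-HT1A. Among pairs of single-base changes the other genes had 3 equal of 8. Since equal scores were among the values that chose the 6 genes, these counts were not tested against each other. All 8 pairs of the 6 genes had both scores under 50, against 1 of the 14 pairs elsewhere, in CG15398 with 49.4 and 38.4. Just past the limit, at 110 bases, the sarcomere gene Unc-89 had a pair of single-base changes in sj440 with equal scores of 30.4. Score and gene set therefore cannot be told apart in this comparison.

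**Figure D2:**
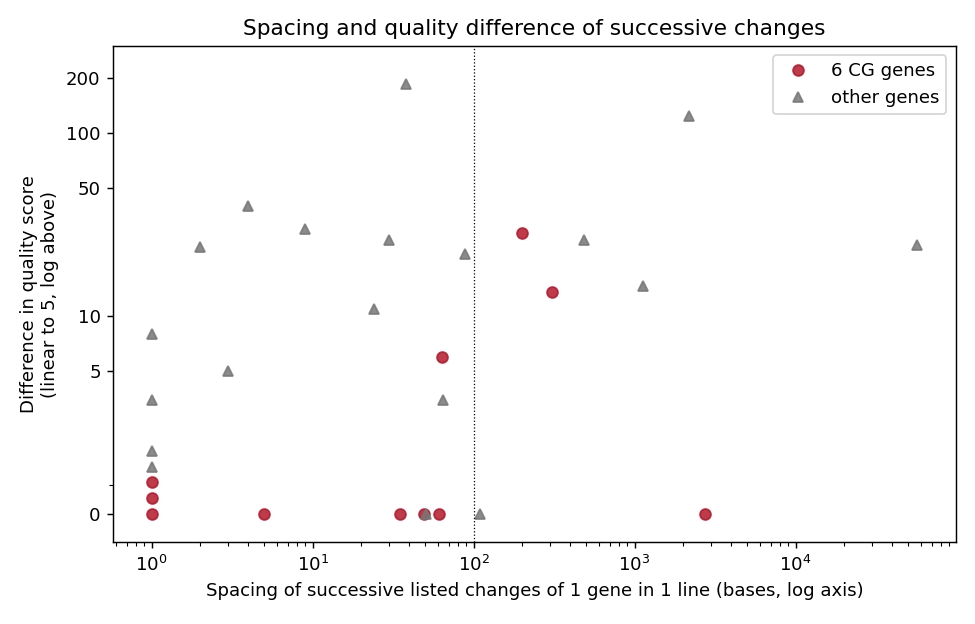
Difference in quality score (vertical axis, linear to 5 and logarithmic above) against spacing in bases (horizontal axis, logarithmic) for successive changes of 1 gene in 1 line, with the 6 genes as circles and all other genes as triangles. Points of identical spacing and difference are stacked upwards, so the 5 stacked points at 1 base from the axis upwards all have a difference of 0. The 2 triangles above that stack are insertions in CG44085 and CG30122, with differences of 4 and 8. The dotted line marks 100 bases, left of which 7 of 8 circles and 3 of 14 triangles have a difference of 0.

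Equal scores also occurred between changes of different genes. Scores under 50 were given to 69 of the 173 changes and took 15 distinct values in all. In sj440, 32 such changes shared 9 values, and in sj461, 25 shared 10. Among pairs of changes in different genes of 1 list, 134 of 5156 had the same score (2.6%), and among those with both scores under 50 it was 97 of 850 (11.4%). These pairs share lists and are not independent, so the shares have no interval.

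The scores of the 6 genes were of this repeated kind in 11 of 18 changes. The 39.4 of CG30485 was shared in sj440 by CG10764, dpr1 and ppk12. The 30.4 of CG43402 was shared in sj461 by DIP-kappa, Sln and CalpA, and the 27.4 of CG13324 in sj440 by Nipped-B and ord. The 57 of N131K in CG14947 was also that of shot and CCHa1-R. In sj266 the 55 of CG31897 was also that of CG15279. By contrast the 26.4 of CG31897 in sj440 and the 38.4 of CG15071 in sj461 stood in their list for these pairs alone. The median score was 38.9 over the 18 changes (range 26.4 to 67) and 57 over the 155 changes of other genes (range 21.2 to 228), and scores under 50 made up 14 of 18 (77.8%) and 55 of 155 (35.5%). This difference was not tested, because score was used in the choice of the genes.

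**Figure D3:**
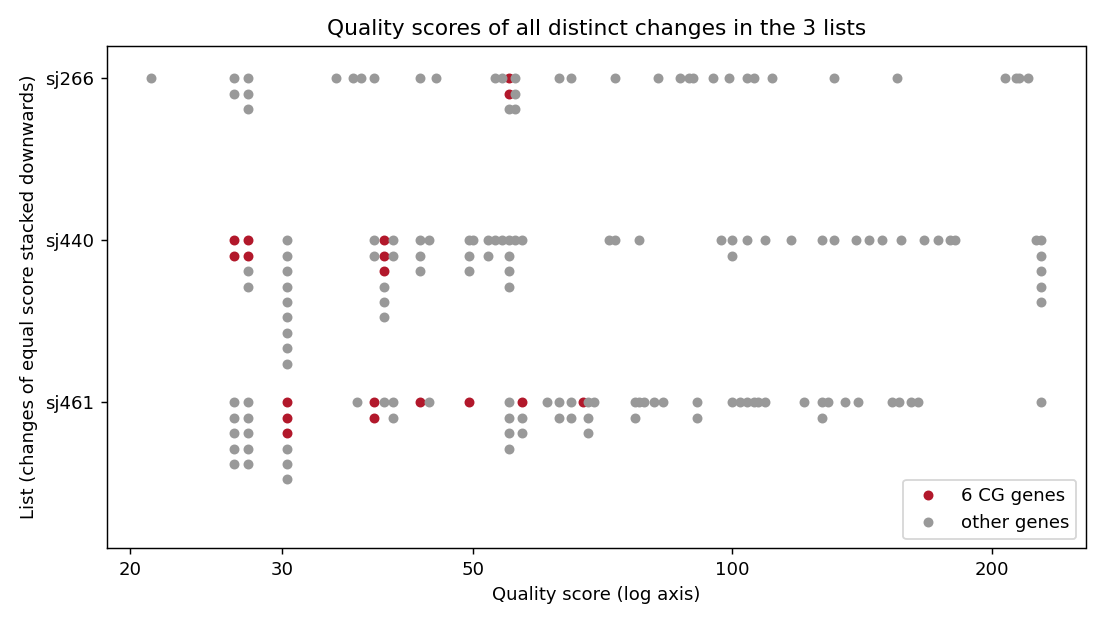
Quality score (horizontal axis, logarithmic, no unit) of all 173 distinct changes, 1 block per list, with changes of equal score stacked downwards. Changes of the 6 genes (red) have scores of 26.4 to 67, and 3 of their 7 columns below 50 also hold changes of other genes (grey).

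Base types were seen before the genes were chosen, so their shares too are a description. In the 6 genes 4 of 18 changes turned a G:C into an A:T pair, the main type after alkylating mutagens (22.2%, exact Clopper-Pearson 95% interval 6.41 to 47.6), as did 39 of 127 single-base changes elsewhere (30.7%, 22.8 to 39.5). The interval of the other genes lies inside that of the 6 genes, and no test was made because neighbouring changes may not be independent. They cover counting error only. Of the 4 changes 3 lay in CG31897 (D991N, M779I and G780S) and the last was D70N of CG43402. Without CG31897 the share was 1 of 14 (7.14%). CG14947, CG15071, CG13324 and CG30485, with 11 changes between them, had none.

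**Figure D4:**
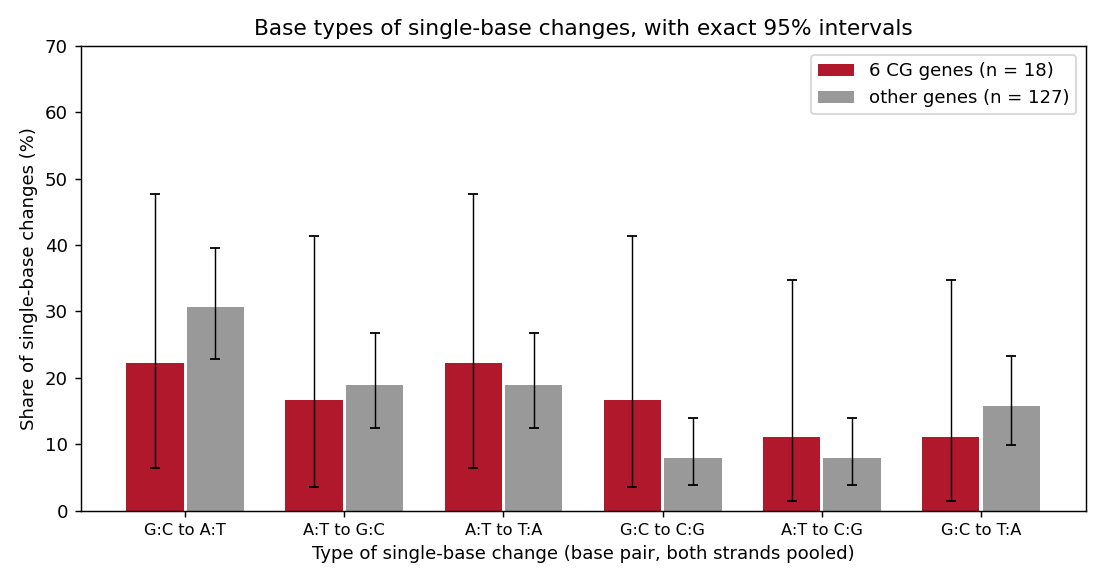
Share of single-base changes (vertical axis, percent) by base-pair type (horizontal axis) in the 6 genes (red, 18 changes) and in all other genes (grey, 127 changes), with exact 95% intervals as bars. G:C to A:T is at 22.2% in the 6 genes and 30.7% elsewhere, and the intervals of the 6 genes are wide for every type.

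By line, this type was found in 1 of 2 changes of the 6 genes and 10 of 26 of the others in sj266. In sj440 it was found in 2 of 7 and 16 of 52, and in sj461 in 1 of 9 and 13 of 49. A:T to T:A changes were as frequent as G:C to A:T in the 6 genes, 4 of 18 (22.2%), among them K321I of CG30485 and Y90F of CG43402. Elsewhere A:T to T:A was found at a similar share, in 24 of 127 (18.9%). Transitions (purine to purine or pyrimidine to pyrimidine) made up 7 of 18 changes (38.9%, interval 17.3 to 64.3) and 63 of 127 elsewhere (49.6%, 40.6 to 58.6). Within 1 run of equal scores the types were mixed. CG30485 had A:T to C:G, A:T to G:C and A:T to T:A, and CG43402 had G:C to A:T, A:T to T:A and G:C to C:G. Among the runs of the 6 genes, only the adjacent pair of CG31897 in sj440 was of 1 type, with G to A at both bases. Of such runs in other genes, the adjacent pair of Msp300 in sj440 was also of 1 type, G:C to T:A, while those of Pvr and 5-HT1A were mixed.

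On the strand of the RNA, A to G, the change that adenosine-to-inosine editing leaves in sequenced RNA, was found once, as N57D of CG13324. It was listed for 9 of 127 changes elsewhere.

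The residue changes of the 6 genes were spread over the BLOSUM62 scale, which scores how often one residue stands for another in related proteins. The 17 missense changes had scores from -3 to 3 with a median of 0, and the 75 other purely missense changes had the same range and median. The lowest, -3, were L40P of CG15071 and K321I of CG30485, and the highest, 3, was Y90F of CG43402. Read together, Y90L scores -1 and N57A scores -2, lower than either change of codon 57 alone (1 for N57D and 0 for N57T). Proline was brought in by 3 of 17 (L40P, Q303P and S305P), against 6 of 75 elsewhere. Charge changed in 5 of 17 (N57D, N131K, K321I, D991N and D70N), against 22 of 75. No effect on a protein or on muscle was measured.

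Single-base changes at adjacent bases were listed 5 times in the 3 lists, 3 times in the 6 genes (CG13324, CG31897 and CG43402) and 2 times elsewhere. By number of changes in 1 run of equal score within 100 bases, then by span, the other genes most like the 6 were Msp300, Pvr and 5-HT1A, with 2 changes each. Msp300 had E94D and H95N at adjacent bases in sj440 (score 55). In the same line Pvr, a receptor of growth factors related to PDGF and VEGF, had both bases of a splice donor changed (score 100). The serotonin receptor gene 5-HT1A had E571V and M588T, 51 bases apart, in sj461 (score 68). Runs of 3 such changes occurred in CG30485 and CG43402 and in no other gene of these lists. Number, spacing and equal scores were among the values that chose the 6 genes, so this was not tested. Np in sj461 also had 3 close changes, spaced by 9 and 3 bases, but with unequal scores of 77, 107 and 102. The likeness of Msp300, Pvr and 5-HT1A is over 3 lists and covers listed changes alone.

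Among all genes of the lists, 47 are listed under a CG number and 82 under a name; some CG numbers have been given names since. Of the CG-numbered genes 14 had 2 or more changes in a line, the 6 described here included, and of the named genes 9 did. CG15398 and CG33225 were among the CG-numbered genes that were not chosen: their changes lay 24 and 30 bases apart and had unequal scores (49.4 and 38.4, 55 and 81).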

How the data were processed

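RNA of whole embryos was sequenced by the study. The tools STAR 2.5.4b and cutadapt 2.4 and the build BDGP6 (Release 6) were used per the submitters' processing notes, which state no order. The programs for calling, filtering and annotating variants were not given in the sources used here. For each of the 3 lines analysed the authors deposited a single list, with a quality score for each variant and its annotated effect. The line of a list was taken from its worksheet name.

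Of 202 entries, 29 duplicates of the same position and bases were merged, leaving 173. The 6 genes were matched by symbol, and all 6 were found in the RefSeq gene table (Release 6 plus ISO1 MT), with every change inside the gene's interval. Listed codons translated to the listed residues. This check uses the list alone, and residues were not set against a reference protein, as planned, since no protein table was used here.

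Neighbours were successive changes of 1 gene and line within 100 bases. Shares have exact 95% intervals. No significance test was made: there is 1 list per line, depth is unknown, and the members and lists were chosen with earlier results of these data known. The text names all 6 genes with all changes, and up to 5 other genes with the longest runs of equal score, of which 3 qualified; further genes are named where they share a score, are the nearest listed gene or border a count, and were chosen after their values were seen. Pair, run and codon steps were tested on simulated data. Software was matplotlib 3.10.9, Biopython 1.88, scipy 1.17.1, numpy 2.4.6, pandas 2.3.3 and Python 3.11.15.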

Additional observations from a re-analysis of the deposited data

How the results depend on the processing

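The 18 changes of the 6 genes were the same number with repeats kept, with synonyms and gene IDs added to the match, and with single-base changes alone. They were 16 with each codon counted once, 14 at a score of 30 or more, and 4 at 50 or more, where M79I and D991N of CG31897, N131K of CG14947 and L40P of CG15071 were left. Changes with a neighbour numbered 8 of 18 within 30 bases, 15 within 300 and 18 over the whole gene, against 14 within 100. Equal pairs were 4 of 4 within 30 bases, 7 of 9 within 300 and 8 of 11 over the whole gene, against 7 of 8. They were 7 of 8 when scores within 1 unit counted as equal, and with both scores under 50, a limit chosen after seeing the data. In the other genes equal pairs were 3 of 14, 0 of 6 among CG symbols, 3 of 8 among single-base changes and 0 of 1 with both scores under 50. With distances chosen after seeing the data they were 2 of 10 within 30 bases, 4 of 15 within 300 and 4 of 19 over the whole gene, the added equal pair being that of Unc-89. Codons with several changes were 2, but 1 at a score of 30 or more (CG43402) and 0 at 50 or more. The G:C to A:T share of 22.2% was 30% of 10 with 1 change per cluster, 14.3% of 14 at a score of 30 or more and 25% of 4 at 50 or more. It lay between 7.14% (without CG31897) and 26.7% with 1 gene left out. Removing low scores leaves fewer changes by construction. No paired analysis was possible because the lists hold no values per replicate, and for the same reason no replicate could be left out. Depth and allele shares are unknown, which limits every call.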
